A study of Homo sapiens with 6 samples.

Results

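BCL11B is a gene of chromosome 14 that encodes a zinc finger transcription factor, and in HepG2 cells that overexpress DNMT3A its body carried a string of separate regions with higher DNA methylation. The rows described here are those of the 3 deposited lists of differentially methylated regions that overlap chr14:99168000-99273000 on hg38, which is the gene with about 1 kb on each side. They are 21 of 4344 listed regions, 9 in pair 1, 6 in pair 2 and 6 in pair 3. All 21 lay within the extent that RefSeq gives the gene, chr14:99169287-99272197 on the minus strand. The gene was chosen by the number and direction of its listed regions, so the levels below describe the calls and carry no test.

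The assay was RRBS (reduced representation bisulfite sequencing), in which MspI cuts the DNA at CCGG and bisulfite distinguishes methylated from unmethylated cytosines in the CpG-rich fragments. One group was HepG2 cells, a human liver cancer line, infected with a lentivirus that overexpresses DNMT3A. The other was the same line, labelled WT, infected with a control lentivirus. Each group had 3 libraries. Each list compares 1 overexpressing library with the equally numbered control, called a pair here. The promoter of the vector and the form of DNMT3A it carries are not stated in the labels, and neither DNMT3A nor BCL11B expression was measured in these data. Nothing in the labels ties the libraries to separate cultures, so the SDs may be technical. Mapped reads ranged from 25764323 to 29924507 in the overexpressing libraries and from 26912596 to 29269281 in the control libraries. The reads behind a single region are not given, so the depth of each regional level is unknown.

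BCL11B, also called CTIP2, binds DNA through C2H2 zinc fingers and acts mainly as a repressor together with the NuRD histone deacetylase complex, and its protein is also found in SWI/SNF chromatin remodelling complexes. It is best known for committing thymocyte precursors to the T-cell lineage and for the development of corticospinal neurons, skin and teeth, and it is a tumour suppressor gene in T-cell leukaemia. Hepatocytes are not among the cell types for which it is chiefly known. DNMT3A adds methyl groups to CpG sites that carry none. Methylation at a gene's start site usually accompanies low transcription, while methylation along the body of a gene is common in transcribed genes.

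The start site of the gene is shown because the listed regions came close to it without reaching it. RefSeq's promoter window on GRCh38.p14, chr14:99272148-99272447 on the minus strand, runs from 250 bases before the start site to 50 after it. CpG sites are in capitals:
BCL11B promoter: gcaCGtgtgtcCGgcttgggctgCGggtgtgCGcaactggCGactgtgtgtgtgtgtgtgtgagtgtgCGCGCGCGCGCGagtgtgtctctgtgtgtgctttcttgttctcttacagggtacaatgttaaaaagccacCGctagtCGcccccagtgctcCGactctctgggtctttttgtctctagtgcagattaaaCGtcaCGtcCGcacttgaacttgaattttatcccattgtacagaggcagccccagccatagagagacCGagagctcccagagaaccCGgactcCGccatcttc
The window holds 20 CpG sites, against a median of 14 in the 35116 promoter windows of the same length, 58.8% of which hold fewer. The MspI motif CCGG, which reads the same on both strands, occurs 2 times in it, at bases 11 and 283, and 63.1% of all such windows hold it at least once. No listed region overlapped the window in any pair, which says that none was called there and gives no level. The nearest listed region ended 1388 bp into the gene. Sequences of the listed regions themselves are not shown here.

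All 21 listed regions of BCL11B had the higher level in the overexpressing library and none had the lower. In the whole lists 82.1% of regions were higher in pair 1, 81.7% in pair 2 and 81.1% in pair 3. Weighted by CpG sites, the level over the listed BCL11B regions was 0.469, 0.485 and 0.404 in overexpressing libraries 1, 2 and 3, against 0.207, 0.204 and 0.178 in control libraries 1, 2 and 3. The levels of the 3 overexpressing libraries all lay above those of the 3 control libraries. The overexpressing libraries averaged 0.453 ± 0.0427 and the control libraries 0.196 ± 0.0156, and the difference within a pair was 0.257 ± 0.0280 (SD, n = 3). Each pair's mean covers the regions listed in that pair, so the means do not rest on the same CpG sites.

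Merging the overlapping calls of the 3 pairs left 12 distinct regions, numbered 1 to 12 from the start site in the direction of transcription. Of the 12 regions, 3 were listed in all 3 pairs, 2 in exactly 2 pairs and 7 in 1 pair. Among the 3313 distinct regions of the series the shares listed in 3, 2 and 1 pairs were 8.21%, 13.6% and 78.2%, and 7.97% were listed in all 3 pairs and higher in each, as were the 3 of BCL11B. Since the gene was picked with these calls in view, nothing is read from its higher share of repeated calls. Pair 1, which had the most listed regions here, also had the most mapped reads in both groups, 29924507 in its overexpressing and 29269281 in its control library, and the part of depth in the count of calls was not tested.

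The regions were spread over 89.1 kb of the gene's 102.9 kb, with gaps of 503 to 24325 bp between neighbours. Regions 1 and 2 lay 1.39 to 2.21 kb from the start site. Regions 3 to 6 lay 14.6 to 27.8 kb from it, regions 7 to 10 at 40.3 to 58.96 kb, and regions 11 and 12 at 83.3 to 90.5 kb. Region 12 began 12395 bp before the far end of the gene. These 4 stretches were set by eye for description. The gap of 10.4 kb between regions 8 and 9, inside a stretch, stood beside gaps of 12.4, 12.6 and 24.3 kb between stretches. Which of them are exonic or intronic was not analysed here, since the gene table gives only the extent of genes.

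**Figure D1:**
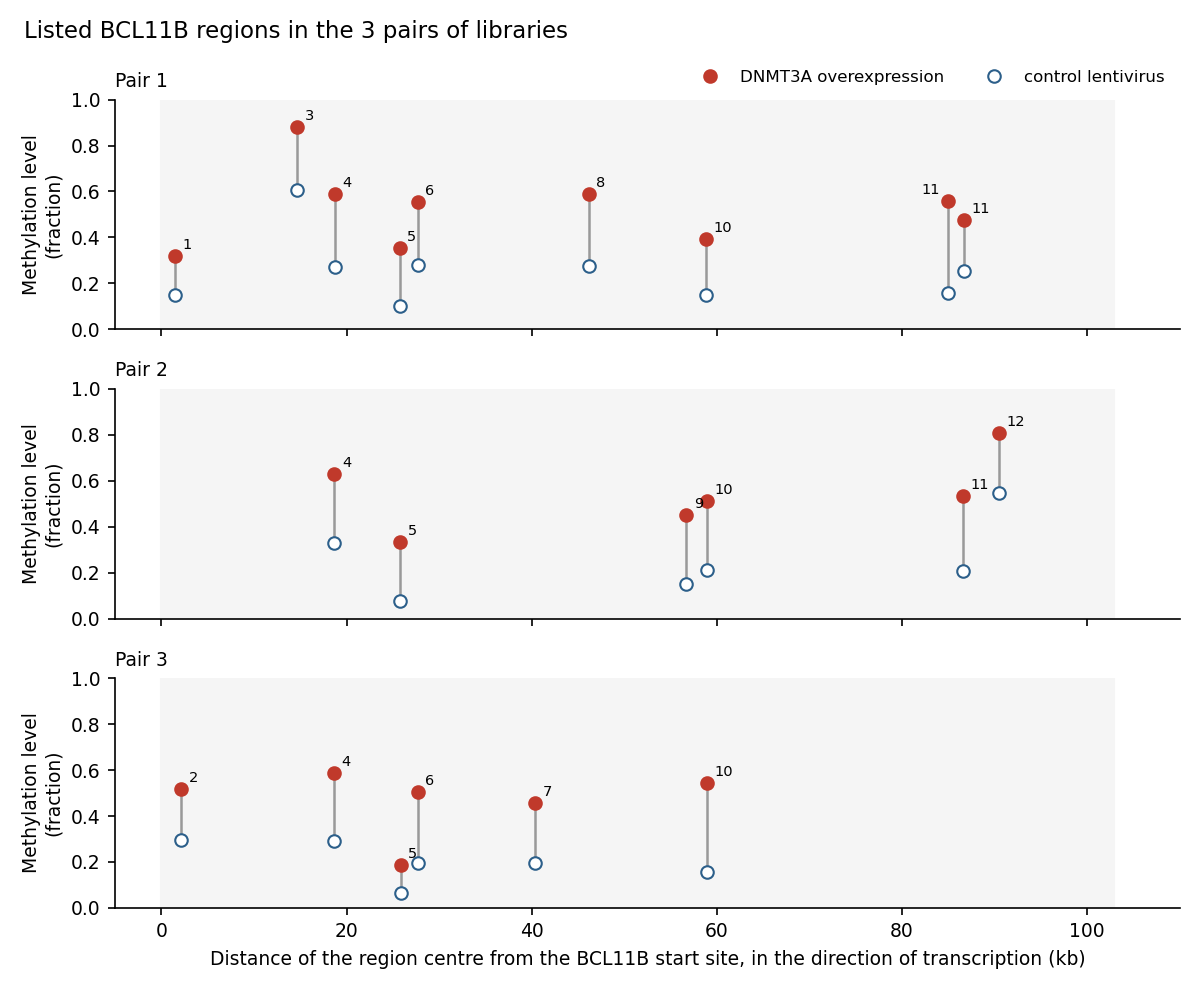
Methylation level (fraction) of each listed BCL11B region in pairs 1, 2 and 3 against the distance of its centre from the start site in kb; filled points are the overexpressing library, open points its control, the numbers are those of the distinct regions and the grey band is the gene. Every filled point lies above its open point, and the 3 panels share regions 4, 5 and 10.

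Region 4, chr14:99253371-99253580, had the smallest spread of the difference among the regions listed in all 3 pairs. Its level was 0.590, 0.630 and 0.589 in overexpressing libraries 1, 2 and 3, against 0.272, 0.331 and 0.289 in control libraries 1, 2 and 3. The groups did not overlap. Regions listed in every pair were selected for such differences, so nothing is read from a separation of the groups, here or elsewhere. Of the 272 distinct regions listed in all 3 pairs, 264 were higher in each. How many of them separate the groups was not counted. The mean was 0.603 ± 0.0234 in overexpressing and 0.298 ± 0.0303 in control libraries (SD, n = 3 each), with a difference of 0.305 ± 0.0108 (SD, n = 3 pairs). The regions of the 3 pairs shared their end nearer the start site, 18.6 kb into the gene. They were 210, 150 and 76 bp long with 22, 18 and 8 CpG sites. Only 76 bp are common to all, so the small SD does not rest on the same sites in each pair.

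Region 10, chr14:99213235-99213431, had the largest mean difference of the 3 shared regions and a wider spread. Its level was 0.391, 0.513 and 0.544 in overexpressing libraries 1, 2 and 3, against 0.149, 0.211 and 0.156 in control libraries 1, 2 and 3. Library 1 was the lowest in both groups, and the groups did not overlap. The mean was 0.483 ± 0.0806 in overexpressing and 0.172 ± 0.0339 in control libraries (SD, n = 3 each), a difference of 0.311 ± 0.0729 (SD, n = 3 pairs). Pairs 2 and 3 listed identical boundaries of 131 bp, with 14 and 13 CpG sites, while pair 1 listed 197 bp with 20. The number of sites therefore differed at identical boundaries, which shows that it is not a fixed property of the sequence. Region 10 also lies inside LOC124903412, a long noncoding RNA gene within the extent of BCL11B (chr14:99197393-99214336), 905 bp from an end of it, and region 9 lies 1105 bp outside that end.

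Region 5, chr14:99246246-99246586, had the most CpG sites and, of the 3 shared regions, the lowest mean level in both groups. It stood at 0.354, 0.334 and 0.187 in overexpressing libraries 1, 2 and 3, against 0.103, 0.0785 and 0.0630 in control libraries 1, 2 and 3. Library 3 was lowest in both groups, and the groups did not overlap. The mean was 0.292 ± 0.0910 in overexpressing and 0.0814 ± 0.0201 in control libraries (SD, n = 3 each), with a difference of 0.210 ± 0.0746 (SD, n = 3 pairs). The differences were 0.251 in pair 1, 0.256 in pair 2 and 0.124 in pair 3, and without pair 3 the mean is 0.254. The listed region was 316 bp with 45 CpG sites in pair 1, 306 bp with 50 in pair 2 and 218 bp with 38 in pair 3, of which 193 bp are common to all. The smaller difference of pair 3 and its other boundaries cannot be told apart.

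**Figure D2:**
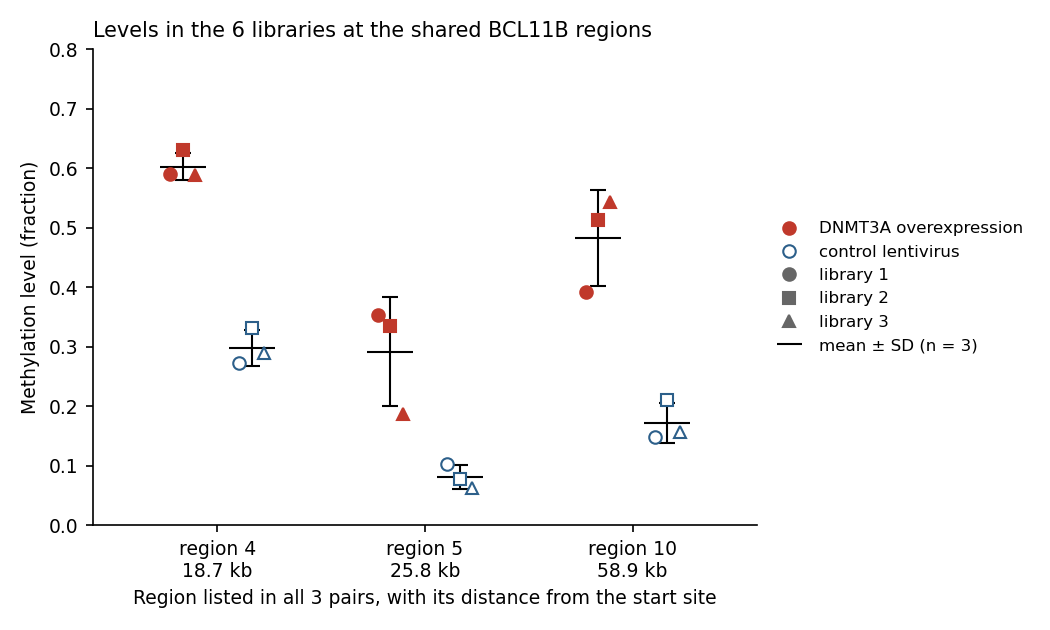
Methylation level (fraction) in the 6 libraries at BCL11B regions 4, 5 and 10, the 3 listed in every pair; shapes give the library number, filled points the overexpressing and open points the control libraries, and bars the mean ± SD (n = 3). In each region the 3 overexpressing libraries lie above the 3 controls, and overexpressing library 3 stands lowest in region 5, at 0.187.

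The regions listed in 2 pairs were 6 and 11. Region 6, chr14:99244440-99244580, lay 1.67 kb from region 5 and was listed in pairs 1 and 3. It stood at 0.554 and 0.506 in overexpressing libraries 1 and 3, against 0.279 and 0.193 in control libraries 1 and 3, a difference of 0.275 and 0.312. Both overexpressing values lay above both control values. Region 11 was listed in pairs 1 and 2, where pair 2 gave chr14:99185501-99185650 with 16 CpG sites at 0.534 in the overexpressing and 0.209 in the control library. Pair 1 gave 2 regions there, chr14:99185502-99185589 with 11 CpG sites at 0.475 and 0.253, and chr14:99185649-99188909 with 12 CpG sites at 0.559 and 0.159. That last region had the largest difference of the 21, 0.401, and was 3261 bp long with 0.368 CpG sites per 100 bp. Its level thus rests on few sites for its length. It starts at 99185649, just inside the end of the pair 2 region at 99185650, and joins region 11 only by that edge. Almost all of it therefore has no counterpart in pair 2. Requiring an overlap of at least 0.5 of the shorter region splits it off, which gives 13 distinct regions.

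Control levels ranged from 0.147 to 0.605 among the 7 regions listed once, and overexpressing levels from 0.319 to 0.881. Regions 3 and 12 were already intermediate in the controls. Region 3 (chr14:99257456-99257563) stood at 0.881 in the overexpressing and 0.605 in the control library of pair 1, and region 12 (chr14:99181682-99181751) at 0.807 and 0.545 in pair 2. These were the highest control levels of the BCL11B regions, and the next highest was 0.331, at region 4 in pair 2. The differences of regions 3 and 12 were 0.276, which is the median of the 21, and 0.261.

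The remaining single calls had low control levels. Region 8 (chr14:99225968-99226119) stood at 0.591 in the overexpressing and 0.277 in the control library of pair 1. Region 7 (chr14:99231769-99231850) stood at 0.456 and 0.194 in pair 3, and region 9 (chr14:99215441-99215545) at 0.451 and 0.151 in pair 2. Their differences were 0.314, 0.262 and 0.300. None of these has a replicate, because a library's level is deposited only where its pair was called.

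The 2 regions nearest the start site had smaller differences than most of the others. Region 1 (chr14:99270673-99270809) stood at 0.319 in the overexpressing and 0.147 in the control library of pair 1, a difference of 0.172. Region 2 (chr14:99269982-99270169) stood at 0.519 and 0.294 in pair 3, a difference of 0.224. Across the 4 stretches, the median difference was 0.198 in regions 1 and 2, 0.276 in regions 3 to 6, 0.301 in regions 7 to 10 and 0.293 in regions 11 and 12. Regions 1 and 2 were also dense by the deposited counts of CpG sites, which are not a fixed property of the sequence. They had 19.7 and 15.96 sites per 100 bp, against a median of 10.7 over the 21. Region 5, also dense at 14.2 to 17.4 sites per 100 bp, held the smallest difference of all, 0.124 in pair 3. With 1 call each, regions 1 and 2 give no spread against which their smaller difference could be set.

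In size the BCL11B gains resembled the gains of the whole series. Their median difference was 0.276 (range 0.124 to 0.401), against 0.265 (interquartile range 0.201 to 0.341) over all 3546 listed gains. Of the 21 differences, 17 lay inside that interquartile range, which by definition holds 50% of all gains, 2 below it and 2 above it. Several of the 21 are calls of the same region in different pairs, so they are not separate members. The median control level was 0.209 in BCL11B and 0.195 over all gains, and the median level in the overexpressing libraries was 0.519 and 0.512. CpG density, by the deposited site counts, had medians of 10.7 and 10.8 sites per 100 bp. The BCL11B regions were longer, with a median of 141 bp against 103 bp, and 8 of the 21 were above the upper quartile of 151 bp.

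**Figure D3:**
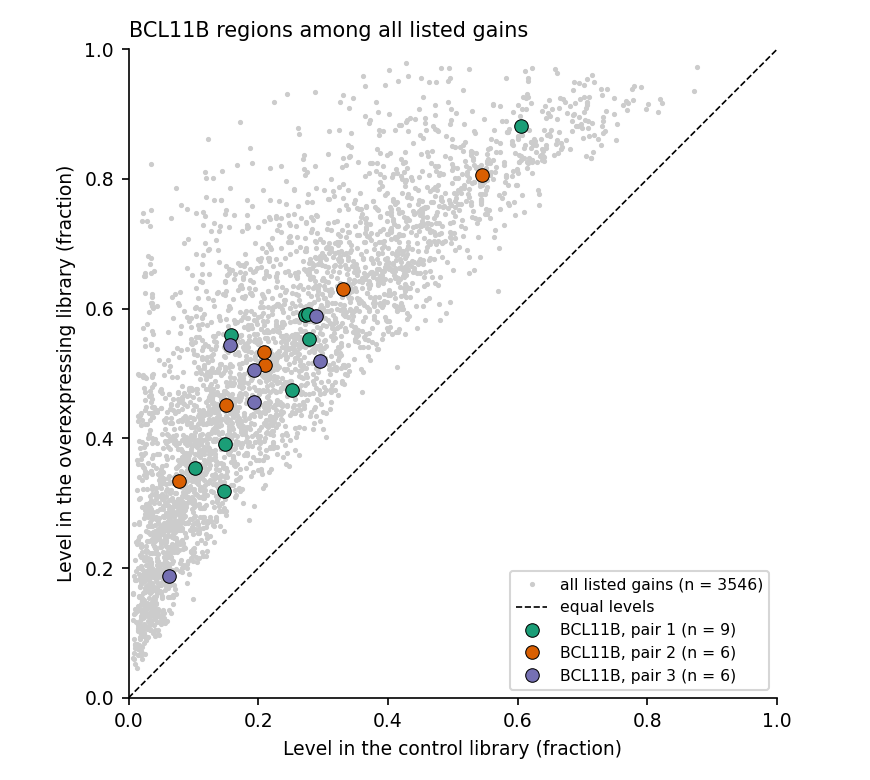
Level in the overexpressing library against level in the control library (fractions) for all 3546 listed gains (grey) and for the BCL11B regions of pairs 1, 2 and 3 (coloured); the dashed line marks equal levels. The BCL11B points lie within the grey cloud, with control levels from 0.0630 to 0.605.

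BCL11B was among the genes with the most listed regions, which is what it was chosen for. Of 20056 protein-coding genes, 1773 (8.84%) had a listed region within 1 kb, with a median of 1 distinct region each. CACNA1H and PTPRN2, which encode a T-type calcium channel and a secretory-granule phosphatase homologue, had 22 each, GSE1 had 13, and MEGF6 had 12 like BCL11B. No other gene had as many. Of the 13 listed regions of MEGF6, 7 were higher and 6 lower, whereas those of BCL11B were all higher, which was also so for 73.1% of the 1773 genes. With a median of 1 distinct region, those genes are not a like comparison for a gene with 12. PTPRN2 is much the longer gene: BCL11B held 1.14 distinct regions per 10 kb, CACNA1H 3.11 and PTPRN2 0.209. Among the 32 genes with at least 5 distinct regions, 7 had a higher density than BCL11B. Only 7 genes, BCL11B included, had at least 3 distinct regions listed in all 3 pairs.

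**Figure D4:**
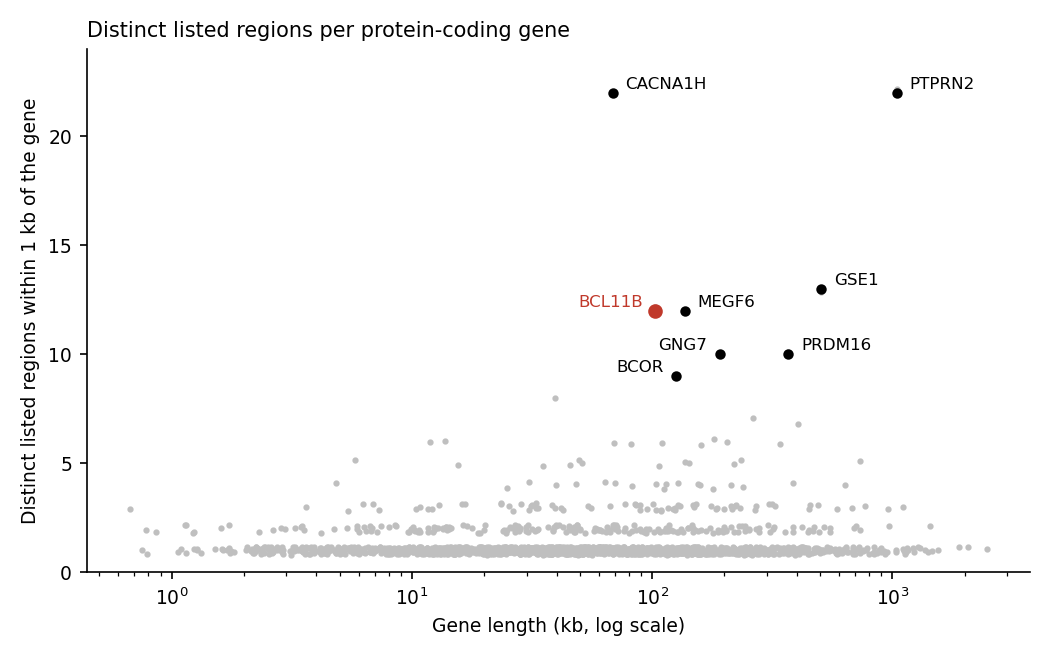
Number of distinct listed regions within 1 kb of each of the 1773 protein-coding genes that have any, against gene length in kb on a log scale; points are shifted slightly up or down to separate them, and the 8 genes with the most are named. BCL11B (red), with 12 regions in 102.9 kb, is far shorter than PTPRN2, which has 22.

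Few regions were listed around the gene. The 21 regions were 17.8% of the 118 regions listed on chromosome 14. Downstream of BCL11B no region was listed for 3.65 Mb, up to chr14:95517027-95517245. Upstream, the next ones were chr14:99320674-99320778, 48.5 kb before the start site (0.395 in the overexpressing and 0.165 in the control library of pair 1), and chr14:99321067-99321275 (0.664 and 0.365 in pair 3). Both had no gene of any kind within 1 kb in the RefSeq table and were higher too. Beyond them the next was in SLC25A29, at chr14:100284993-100285044 (0.871 in the overexpressing and 0.534 in the control library of pair 3). None of 9 protein-coding genes named as neighbours, SETD3, CCNK, CCDC85C, HHIPL1, CYP46A1, EML1, EVL, VRK1 and C14orf132, had a listed region, where 8.84% of all protein-coding genes had one. The 9 are not a full set of neighbours, and SLC25A29, with 3 listed regions, was not among them. Their count restates the scarcity of regions given above, so nothing is read from it beside the 8.84%.

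Genes related to BCL11B by function were looked up next. With the neighbours above these were 75 symbols, all matched in the gene table. BCL11A, its paralogue and the repressor of fetal globin genes, had no listed region. Of 27 SWI/SNF subunit genes 4 had one (14.8%, against 8.84% of all protein-coding genes), 3 with gains and 1 with a loss. DPF3, a subunit that reads histone acetylation, was listed in all 3 pairs at chr14:72783845-72783949. It stood at 0.588, 0.622 and 0.566 in overexpressing libraries 1, 2 and 3, against 0.139, 0.190 and 0.223 in control libraries 1, 2 and 3. The groups did not overlap, and nothing is read from that in a region selected by its calls in every pair. BICRA, a subunit of the noncanonical complex, was likewise listed in all 3 pairs, with differences of 0.408, 0.459 and 0.437. BRD9, a bromodomain subunit, and DPF2 were listed once, with differences of 0.132 and -0.0675.

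The list of 15 NuRD and deacetylase genes held HDAC1, HDAC2 and SIRT1 as its only deacetylases. Of the 15, 1 was listed (6.67%, against 8.84% of all protein-coding genes). It was CHD5, a chromatin remodeller of neural tissue, with a difference of -0.188 in pair 2. HDAC4 and HDAC5, outside this list, each had 2 listed regions, both higher. The NR2F genes encode the COUP-TF nuclear receptors with which BCL11B protein was first found to interact, and 2 of the 3 were listed (66.7%, against 8.84%), with gains. NR2F2 was listed in all 3 pairs at chr15:96334071-96334453, a region of 76 CpG sites. It stood at 0.331, 0.329 and 0.304 in overexpressing libraries 1, 2 and 3, against 0.0689, 0.0762 and 0.0693 in control libraries 1, 2 and 3. A second NR2F2 region in pair 2 differed by 0.0805. At the NR2F2 region shared by the pairs the groups did not overlap, from which nothing is read, since such regions were selected for differences. Its control levels lay in the range of those of BCL11B region 5. NR2F6, listed in all 3 pairs, had differences of 0.252, 0.230 and 0.228.

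Of 20 T-lineage factor genes 3 were listed (15.0%, against 8.84%), all with gains only, as were 73.1% of all genes with a listed region. HES1, a Notch target and repressor, differed by 0.170, 0.146 and 0.159 in pairs 1, 2 and 3. TCF7, a T-cell factor known from mouse thymocytes to act before BCL11B, was listed in 2 pairs and stood at 0.811 and 0.826 in overexpressing libraries 1 and 2, against 0.523 and 0.602 in control libraries 1 and 2. NOTCH1, the receptor that starts T-lineage entry, was listed in pair 3 with a difference of 0.211. GATA3, RUNX1, RUNX3, LEF1 and IKZF1 had no listed region. These lists are short and their members differ in length and CpG content, so the shares are given beside that of all genes without a test.

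**Figure D5:**
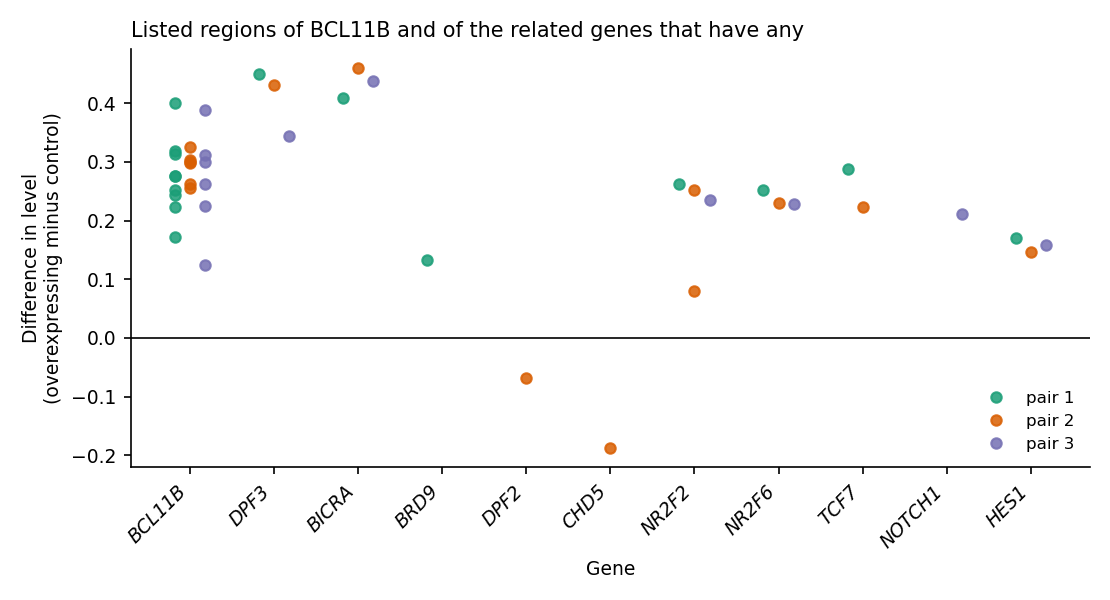
Difference in methylation level (overexpressing minus control) of every listed region of BCL11B and of the 10 related genes that have any, coloured by pair. The BCL11B points run from 0.124 to 0.401, and DPF2 and CHD5 are the genes below 0.

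Genes whose levels were most like those of BCL11B were sought by the Euclidean distance over the 6 library levels, each weighted by CpG sites. Of 241 other protein-coding genes with a region in every pair and none shared with BCL11B, the closest were RAB40C (distance 0.0441), MYOM1 (0.0474), GNG7 (0.0657), SYNE3 (0.0742) and NFIC (0.0795), against a median distance of 0.349. RAB40C encodes a Rab-like GTPase and MYOM1 a sarcomere protein, and each rests on 1 distinct region. GNG7, a G protein gamma subunit gene, had 27 listed regions, all higher, and stood at 0.426, 0.456 and 0.412 in overexpressing libraries 1, 2 and 3, against 0.173, 0.193 and 0.162 in control libraries 1, 2 and 3. SYNE3, which encodes a nuclear envelope protein, had 5 listed regions and NFIC, a nuclear factor I gene, had 10, all of them higher.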

How the data were processed

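RRBS libraries of 3 DNMT3A-overexpressing and 3 control HepG2 samples were used, grouped by their labels. Per the submitters' processing notes the files are on hg38, and the aligner, region caller, thresholds and coverage minimum are not stated in the labels or headers. Per the file headers, the deposited lists hold 2 mean methylation levels per region, 1 per library, as a fraction, with its length, CpG sites, a difference and an area score. The area score was not used. The deposited difference equalled the overexpressing minus the control level within 1e-12. Total and mapped reads are counts and mapping rates percent values of the authors.

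Regions overlapping by at least 1 bp were merged with Python 3.11.15 and pandas 2.3.3. Several regions of a pair in a merged region were averaged with CpG sites as weights. The merging step was tested on simulated regions. Positions were compared with RefSeq genes of GRCh38.p14, and a region was counted for each gene it lay within 1 kb of. Only called regions are deposited, so listed differences tend to exceed those of a fresh measurement, and an unlisted region has no level here. The planned analyses hold no test. All listed BCL11B regions are described, and the genes most like it are the 5 nearest by distance. The gene and the lists were chosen with earlier results of these data known. Alternatives were other windows, overlaps, weights and site minimums, and leaving out a pair.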

Additional observations from a re-analysis of the deposited data

How the results depend on the processing

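The 21 listed regions stayed 21 with the bare gene extent and with 10 kb on each side, and became 18 with at least 10 CpG sites. No region with a lower level appeared under any of these. Requiring regions to overlap by at least 0.5 of the shorter one gave 13 distinct regions in place of 12, and leaving out a pair gave 9 to 11. The mean difference over listed regions, 0.257, ranged from 0.244 to 0.272 when a pair was left out. It was 0.278 without weights, 0.253 with at least 10 CpG sites, and 0.253 without the 3261 bp region, an alternative chosen after seeing the data. At regions 4, 5 and 10 together the mean difference was 0.248 ± 0.0368 (SD, n = 3 pairs), 0.236 to 0.270 without a pair, 0.276 without weights and 0.256 averaged on the logit scale and transformed back. Using only region 10, whose boundaries are identical in pairs 2 and 3, also chosen after seeing the data, gave 0.311. That leaves out region 4 and region 5, which had the most CpG sites and the smallest mean difference, 0.210. Of 29 alternatives, it was the only 1 counted as moving a result. The fall from 12 to 9 distinct regions without pair 1 was counted as the same, so that label does not mean an unchanged value. No paired analysis was possible because the results come from no test, and the differences given are already those within pairs. Reads per region were not analysed here, so the effect of depth on single regions, most of all on the 7 listed once, is unknown.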

Other observations

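Starts of overlapping regions sometimes differed by a single base between pairs. Among 1267 comparisons of the starts of overlapping regions of different pairs in the whole series, 180 differed by exactly 1 bp. In BCL11B this was so for region 5, which began at 99246271 in pair 1 and 99246270 in pair 2, and for region 11, which began at 99185502 in pair 1 and 99185501 in pair 2. The lists do not say whether the cytosines of both strands of a CpG site were counted separately. At region 5, pair 2 gave 50 CpG sites in 306 bp and pair 1 gave 45 in 316 bp, although the shorter stretch lies within the longer one but for 1 base.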
